A study of Homo sapiens with 6 samples.

Results

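The genes described here encode actins, the tropomyosins, calponins and transgelins that lie along actin filaments, the myosins that pull on them, the cross-linkers and adhesion proteins that anchor them, and the transcription factors that control them. Members were chosen by gene symbol from a list of 50 genes, and 44 had a probe set on the array, out of 17687 genes named on it. The other 6, TPM3, FLNA, FLNC, FHL1, TLN1 and WDR1, were not analysed here. The list was drawn up with results of this comparison already known, so the calls given for its members describe them and support nothing further.

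RNA came from cells of the established human line T24, grown from a bladder carcinoma, and 3 samples per group were hybridised, each to its own array. All cells were grown with 10% serum, kept 12 h without it, and then given either vehicle or oxidized low-density lipoprotein (ox-LDL, a cholesterol-carrying plasma particle with oxidized lipids and protein) at 20 µg/mL for 24 h. Separate cultures are not stated in the labels, so the spread behind each p-value is that of these samples alone and may be technical, and the number of arrays limits precision. A description field instead names control and G9a siRNA. Groups follow the titles, source and treatment fields, and EHMT2, the G9a gene, read 8.0, 7.91 and 7.63 in log2 units with vehicle and 8.34, 8.26 and 8.06 with ox-LDL (limma adjusted p = 0.125).

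Actin filaments with non-muscle myosin II form stress fibres, which end at focal adhesions, the sites where integrins hold the matrix through talin, vinculin and LIM-domain proteins. Free actin monomers hold the coactivators MRTFA and MRTFB in the cytoplasm. When actin polymerises, these coactivators enter the nucleus and act with the transcription factor SRF, which binds a DNA element called the CArG box in many genes of the cytoskeleton. Smooth muscle cells carry their own versions of several of these proteins, while epithelial and tumour cells mostly use the non-muscle ones. The 44 genes were accordingly sorted into 5 smooth-muscle-restricted genes (ACTA2, ACTG2, TAGLN, CNN1 and MYH11), 8 genes enriched in muscle but also made elsewhere, and 31 non-muscle genes.

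With ox-LDL, 9 of the 44 genes were higher and 0 were lower (limma, Benjamini-Hochberg adjusted p under 0.05 over 21448 probe sets), beside 3.48% of all probe sets higher and 3.29% lower. At an unadjusted p under 0.05, 19 members differed, beside 26.1% of all probe sets. TAGLN rose most, followed by CALD1 and NEXN, each by more than 2-fold. The other 6, TPM1, MYL9, CNN2, FHL2, VCL and ACTN4, rose between 1.28-fold and 1.42-fold. The 9 came from every class: 1 of 5 smooth-muscle-restricted, 5 of 8 muscle-enriched and 3 of 31 non-muscle genes. The median log2 difference was 0.11 over the 44 genes and -0.03 over all probe sets. By class it was -0.18 for the smooth-muscle-restricted, 0.47 for the muscle-enriched and 0.09 for the non-muscle genes. The median of vehicle means was 10.59 over members and 7.13 over all probe sets. By class, in the same order, it was 7.06, 10.13 and 11.17. Probe sets above the median level had a median difference of 0.045. The part of signal level in these differences was not tested. The study's design text names a selection of p at or below 0.001 with at least 1.5-fold. With the unadjusted limma p-values used here, TAGLN, CALD1 and NEXN met it, beside 1% of all probe sets higher and 1.31% lower.

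With any 1 array left out, and so fewer arrays to test, the count of 9 changed. It was 14 without vehicle replicate 3, where ACTB, TPM2, MYL6, MYH9 and MRTFB passed too. It was 6 without vehicle replicate 1, where MYL9, VCL and ACTN4 lost the call, and 4 without vehicle replicate 2, where CNN2 and FHL2 lost it as well. Leaving out any 1 ox-LDL array kept 3, which were TAGLN, CALD1 and NEXN each time. The count over all probe sets moved as well, from 6.76% higher when vehicle replicate 3 was left out to 1.89% and 1.55% when the first or second vehicle array was. It was 0.452%, 0.434% and 0.494% when ox-LDL arrays 1 to 3 were left out in turn. Vehicle replicate 3 stood apart: it correlated with the other arrays at 0.979 to 0.988 across probe sets, against 0.992 to 0.997 among the other 5.

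**Figure D1:**
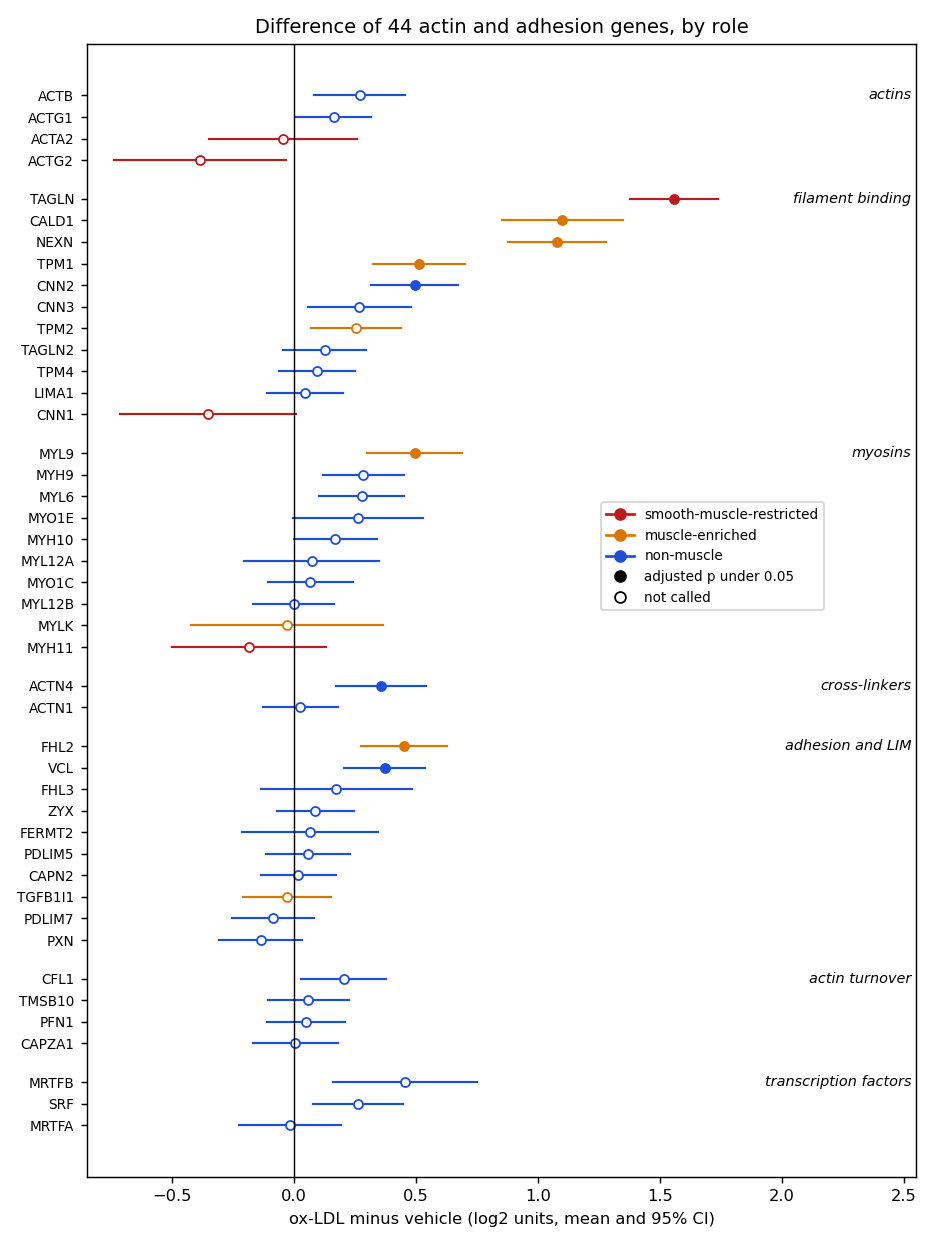
Difference of ox-LDL minus vehicle in log2 units for the 44 measured genes (horizontal axis), one gene per line and sorted within roles, with points for the difference and bars for its 95% confidence interval from limma, coloured by class. Filled points mark the 9 genes that passed the test, led by TAGLN at 1.56, CALD1 at 1.10 and NEXN at 1.08, while ACTG2 and CNN1 have the lowest differences, -0.39 and -0.35.

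The groups did not overlap for 24 members with ox-LDL above and for 2 members, ACTG2 and PXN, with ox-LDL below, beside 19.1% and 17.7% of all probe sets. Of these 26 genes, 17 did not pass the test. Values differed little among ox-LDL arrays, where the median gap between a member's highest and lowest array was 0.06, against 0.14 among vehicle arrays. Over all probe sets the same medians were 0.15 and 0.29. All 44 probe sets lay above 5.21, the level under which 95% of the values of 612 negative control probe sets fell on the 6 arrays.

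What members share beyond their names was read from RefSeq promoter windows (GRCh38.p14, 250 bases before to 50 after a gene start), found by gene ID for 40 of the 44 genes. ACTB, MYH11, MYL9 and TAGLN had no entry. A CArG box, which reads the same on both strands, was found in windows of 11 of the 40 genes (27.5%), against 438 of 27305 genes in the whole table (1.6%). Members also had more windows per gene, and by window the shares were 13 of 75 (17.3%) and 454 of 35093 (1.29%). Of the 14250 array genes with a window, 248 had a box. Members were chosen as cytoskeletal genes, in many of which SRF binds this element, so their high share is no independent result. With 1 mismatch allowed in the A and T core, 16 members (40%) and 9.88% of all genes had a match, and ACTA2, ACTN4, CALD1, MYL12A and ZYX were added. All 15 boxes in member windows, counted once per start, lay before the start, with their first bases between 173 and 10 bases before it. Among all boxes found, 92.7% lay before it.

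Boxes are shown in capitals, with 12 bases of flank where these lie before the start. The stretches were chosen for 3 actins and MYLK, which did not pass, for CNN2 and FHL2, the 2 genes with a full box that passed, and for SRF, which carries boxes before its own gene. The pair in ACTA2 each differ from the full box at 1 core position, and the 2 stretches of FHL2 belong to different starts of that gene.
ACTA2, chr10:88952823-88952906, minus strand: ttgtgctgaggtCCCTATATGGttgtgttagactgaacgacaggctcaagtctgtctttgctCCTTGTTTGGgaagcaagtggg
ACTG2, chr2:73892886-73892956, plus strand: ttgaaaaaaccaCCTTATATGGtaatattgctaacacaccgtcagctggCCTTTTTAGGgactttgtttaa
ACTG1, chr17:81512872-81512905, minus strand: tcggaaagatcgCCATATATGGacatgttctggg
MYLK, chr3:123620621-123620654, minus strand: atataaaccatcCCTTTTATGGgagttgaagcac
CNN2, chr19:1026507-1026540, plus strand: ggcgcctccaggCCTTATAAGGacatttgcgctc
FHL2, chr2:105399089-105399122, minus strand: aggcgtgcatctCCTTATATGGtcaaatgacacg
FHL2, chr2:105438593-105438626, minus strand: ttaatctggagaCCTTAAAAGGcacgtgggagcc
SRF, chr6:43171227-43171268, plus strand: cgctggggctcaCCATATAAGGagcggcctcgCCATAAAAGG

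**Figure D2:**
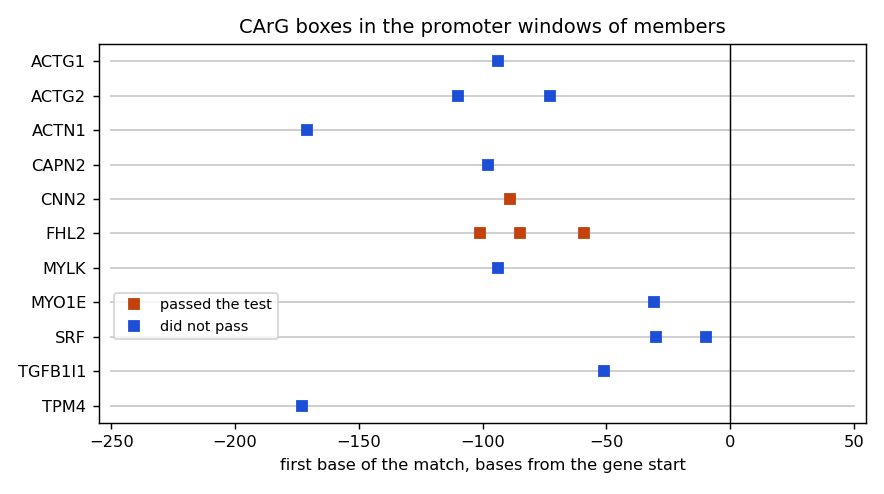
Position of each CArG box in the promoter windows of the 11 members that have one, as bases from the gene start at 0 (horizontal axis), with grey lines for the window and a colour for whether the gene passed the test. All squares lie left of the start, between -173 and -10, and CNN2 and FHL2 are the genes with a box that passed; the squares of FHL2 at -101 and -85 are the same box measured from 2 starts.

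Calls were set beside the boxes as counts. Of the 11 members with a CArG box 2 rose, and of the 29 with a window and no box 5 rose. Among genes on the array that are no members, 237 had a box, of which 8 were higher (3.38%) and 12 lower (5.06%), beside 3.86% and 3.4% of the 14250 array genes with a window. No test was made on these counts, and a match of letters is not a measured binding site.

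The letters GGAATG, read on both strands and bound by TEAD factors, the DNA-binding partners of the mechanosensitive coactivator YAP, were in windows of 15 of the 40 members (37.5%) and of 16.7% of all genes, or in 21.3% and 14% of windows. Of these 15 members 4 rose: NEXN, CALD1, VCL and FHL2. The others, ACTA2, ACTN1, CNN3, LIMA1, MRTFB, MYH10, MYH9, MYL12A, MYLK, PFN1 and PXN, did not pass. TPM1 and ACTN4 rose and had neither these letters nor a full CArG box in their windows. Of the 2202 array genes with these letters that are no members, 4.41% were higher and 2.77% lower. The core of a TATA box, searched on both strands as TATAAA, was in 7 of the 40 members (17.5%) and 14% of all genes. In member windows 0 matches of these motifs overlapped each other. These counts were not tested either, and a match of these letters is not a measured binding site. The TEAD letters of NEXN, CALD1 and VCL are shown in capitals, since these genes rose and had no full CArG box in their windows. The stretches of members that did not pass are not shown.
NEXN, chr1:77888532-77888561, plus strand: ctgggcccgcctGGAATGcgggaacaggct
CALD1, chr7:134745413-134745442, plus strand: cagttaagtctgCATTCCgctactggattt
VCL, chr10:73997933-73997962, plus strand: gcccctcccttaGGAATGggggaggggcgg

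None of the 4 actins passed in limma, while 3 had an unadjusted p under 0.05. The genes of the 2 cytoplasmic actins, which build the cytoskeleton of nearly all cells, had ox-LDL arrays above vehicle arrays without overlap. ACTB had log2 values of 10.75, 10.72 and 10.92 with vehicle and 11.07, 11.05 and 11.07 with ox-LDL, a difference of 0.27 (SE 0.08, adjusted p = 0.0934). Without vehicle replicate 3, the highest vehicle array for this gene, the difference was 0.33 and ACTB passed (adjusted p = 0.0186). ACTG1 had 12.88, 12.89 and 12.86 with vehicle and 13.06, 13.03 and 13.04 with ox-LDL, a difference of 0.16 (SE 0.06, adjusted p = 0.175).

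The genes of the 2 smooth muscle actins had lower or near-equal means with ox-LDL. ACTG2, the γ-actin of visceral smooth muscle, had log2 values of 7.52, 7.63 and 8.09 with vehicle and 7.37, 7.37 and 7.35 with ox-LDL, a difference of -0.39 (SE 0.15, adjusted p = 0.161). Vehicle replicate 3 was its highest array by far, and without it the difference was -0.21. ACTA2, the α-actin of vascular smooth muscle and myofibroblasts, had 6.91, 6.92 and 7.35 with vehicle and 6.97, 7.02 and 7.05 with ox-LDL. The groups overlapped, and the difference of -0.05 (SE 0.13) turned to 0.10 without vehicle replicate 3. Actin genes are close copies of one another, so a probe set can read more than 1 of them and these 4 values are uncertain as separate measurements.

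**Figure D3:**
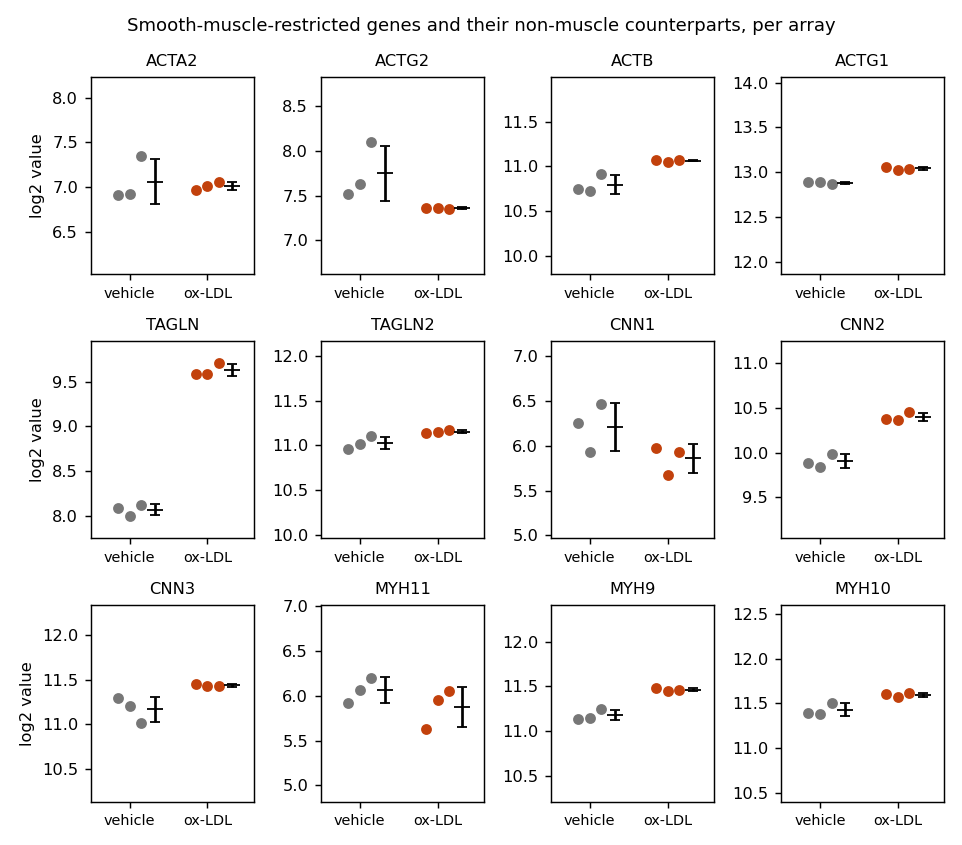
Log2 expression on each array (points; grey vehicle, orange ox-LDL) for the smooth-muscle-restricted genes and their non-muscle counterparts, with bars for mean ± SD of 3 arrays; every panel spans the same number of log2 units. TAGLN alone among the smooth-muscle-restricted genes has its ox-LDL arrays above its vehicle arrays, by 1.56, while all ox-LDL points of ACTB, ACTG1, TAGLN2, CNN2, CNN3, MYH9 and MYH10 lie above their vehicle points.

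Among the proteins that lie along actin filaments, 5 of 11 measured genes rose. TAGLN encodes transgelin, or SM22α, an early marker of smooth muscle differentiation that binds and stabilises actin filaments. Its log2 values were 8.09, 8.0 and 8.12 with vehicle and 9.59, 9.58 and 9.71 with ox-LDL. The gap between the groups was many times the range within either, and the difference was 1.56 (SE 0.08, 95% confidence interval 1.38 to 1.74, adjusted p = 0.000317), or 2.94-fold. Its paralogue TAGLN2, the transgelin of non-muscle cells, had 10.97, 11.01 and 11.11 with vehicle and 11.14, 11.15 and 11.17 with ox-LDL. These groups did not overlap either, but the difference of 0.13 (95% confidence interval -0.04 to 0.30) did not pass (adjusted p = 0.302).

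CALD1 encodes caldesmon, which binds actin, tropomyosin and myosin and restrains the myosin motor. Its log2 values were 8.23, 8.28 and 7.94 with vehicle and 9.23, 9.23 and 9.29 with ox-LDL. This 2.14-fold rise was a log2 difference of 1.10 with an SE of 0.10 (adjusted p = 0.00286). NEXN encodes nexilin, an actin-binding protein of muscle and of cell-matrix contacts. It went from 7.74, 7.76 and 7.57 to 8.78, 8.68 and 8.83, 2.11-fold up with a log2 difference of 1.08 and an SE of 0.09 (adjusted p = 0.00167). Vehicle replicate 3 was the lowest array for both genes, and without it their differences were 0.99 and 1.02. The value is for the gene, so the long smooth muscle form of caldesmon is not told apart here from the short form of other cells.

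Calponins bind actin and dampen myosin activity, and 1 of their 3 genes passed. CNN1, the calponin of differentiated smooth muscle, had log2 values of 6.25, 5.93 and 6.46 with vehicle and 5.98, 5.68 and 5.93 with ox-LDL. Its groups overlapped and the difference of -0.35 (SE 0.15) did not pass (adjusted p = 0.197). CNN2, a calponin of non-muscle cells, rose from 9.89, 9.84 and 9.99 to 10.38, 10.37 and 10.45 (log2 difference 0.49, SE 0.08, adjusted p = 0.0138). CNN3 had 11.29, 11.20 and 11.02 with vehicle and 11.45, 11.43 and 11.43 with ox-LDL, a difference of 0.27 (adjusted p = 0.124) that was 0.19 without vehicle replicate 3, its lowest array. Whether the 3 calponins differ from each other in their response was not tested.

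Tropomyosins run along the filament and govern which motors and cross-linkers can bind it. TPM1 rose from 10.14, 10.19 and 9.98 to 10.60, 10.62 and 10.61 (log2 difference 0.51, SE 0.08, adjusted p = 0.015). All ox-LDL arrays were above all vehicle arrays, and this was true of TPM2 and TPM4 too, which had differences of 0.25 and 0.09 (adjusted p = 0.104 and 0.39). TPM2 passed without vehicle replicate 3 (0.30, adjusted p = 0.0349). LIMA1, which bundles filaments and slows their disassembly, had a difference of 0.04 (SE 0.07).

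Among the 10 measured genes of myosins and their regulators, MYL9 was the 1 that passed. It encodes a regulatory light chain of smooth muscle and non-muscle myosin II whose phosphorylation turns on contraction. Its log2 values were 11.03, 10.95 and 11.17 with vehicle and 11.53, 11.51 and 11.58 with ox-LDL, a difference of 0.49 (SE 0.08, adjusted p = 0.0182). The non-muscle regulatory chains MYL12A and MYL12B had differences of 0.07 (SE 0.12) and 0.00 (SE 0.07), with overlapping groups. These 2 genes are near-identical copies, so their values are uncertain. MYL6, the essential light chain, had a difference of 0.28 (SE 0.07, adjusted p = 0.0723) without overlap, and passed without vehicle replicate 3 (adjusted p = 0.0323).

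The heavy chains of non-muscle myosin II, the motors of stress fibres, had ox-LDL arrays above vehicle arrays, and that of smooth muscle did not. MYH9 had log2 values of 11.14, 11.15 and 11.25 with vehicle and 11.48, 11.44 and 11.46 with ox-LDL. The difference of 0.28 (SE 0.07) lay just outside the threshold (adjusted p = 0.0596), and MYH9 passed without vehicle replicate 3 (adjusted p = 0.0204). MYH10 had 11.40, 11.38 and 11.51 with vehicle and 11.61, 11.57 and 11.62 with ox-LDL, a difference of 0.17 (adjusted p = 0.195). MYH11, the smooth muscle heavy chain, had 5.92, 6.07 and 6.21 with vehicle and 5.63, 5.96 and 6.05 with ox-LDL. Its groups overlapped, with a difference of -0.18 (SE 0.13, adjusted p = 0.403).

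MYLK encodes the kinase that phosphorylates the regulatory light chains. Its difference was -0.03 (95% confidence interval -0.42 to 0.36), and whether it differs from that of MYL9 was not tested. Without vehicle replicate 3, the highest vehicle array at 6.42, it was 0.15. The class I myosins, which link membranes to actin, had differences of 0.07 for MYO1C and 0.26 for MYO1E (adjusted p = 0.58 and 0.196), the latter without overlap.

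**Figure D4:**
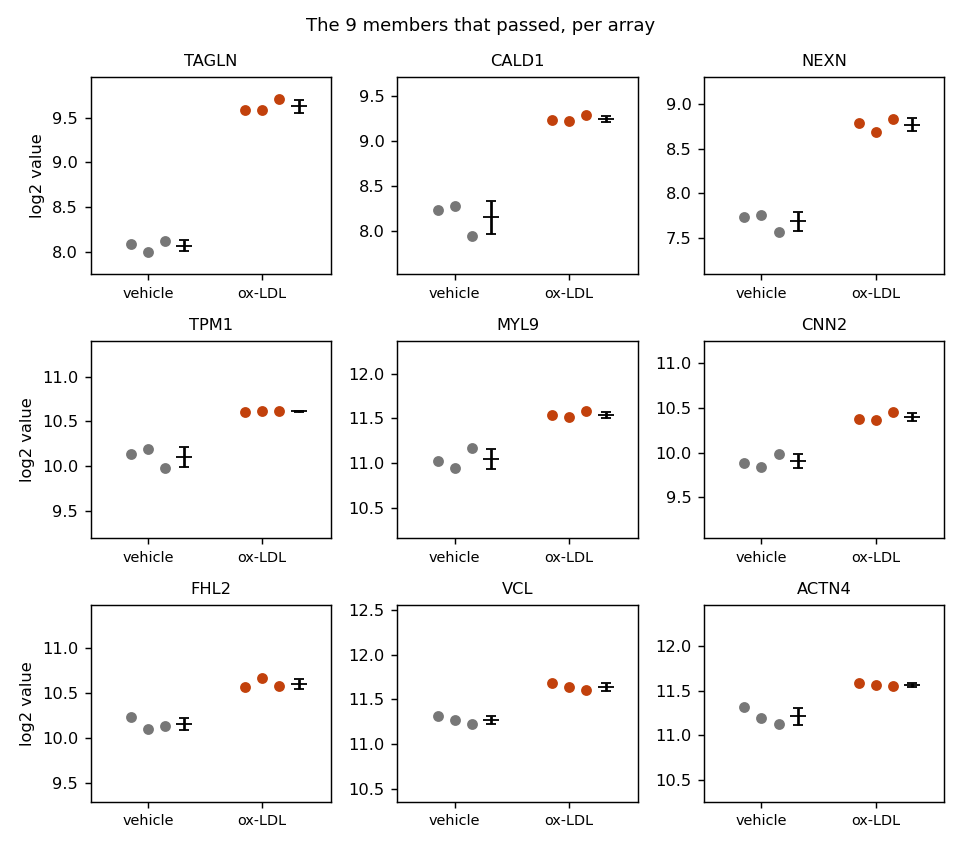
Log2 expression on each array (points; grey vehicle, orange ox-LDL) for the 9 genes that passed, ordered by their difference, with bars for mean ± SD of 3 arrays and panels that span the same number of log2 units. In every panel the 3 ox-LDL arrays lie above the 3 vehicle arrays, and the step is widest for TAGLN and narrowest for ACTN4, at 0.35.

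Of the measured cross-linkers, the α-actinin gene ACTN4 rose and ACTN1 did not pass. ACTN4, an α-actinin also linked to cell motility, went from 11.32, 11.19 and 11.13 to 11.59, 11.56 and 11.55 (log2 difference 0.35, SE 0.08, adjusted p = 0.0441). It was the called member nearest the threshold, and lost its call without any 1 array other than vehicle replicate 3 (adjusted p up to 0.17). ACTN1, the α-actinin of stress fibres and adhesions, had a difference of 0.03 (95% confidence interval -0.13 to 0.18).

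Of 10 measured genes of focal adhesions and LIM-domain proteins, FHL2 and VCL rose. FHL2 encodes a LIM-only protein found at adhesions and in the nucleus, where it binds transcription factors. It went from 10.23, 10.10 and 10.14 to 10.57, 10.67 and 10.58 (log2 difference 0.45, SE 0.07, adjusted p = 0.0181). VCL encodes vinculin, which reinforces the link of talin to actin under tension. It went from 11.32, 11.27 and 11.22 to 11.69, 11.64 and 11.60 (log2 difference 0.37, SE 0.07, adjusted p = 0.0285).

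The remaining 8 adhesion genes had differences from -0.14 to 0.17. The upper end is FHL3, which had 0.31 without vehicle replicate 3 (adjusted p = 0.0607) and 0.06 without vehicle replicate 1. PXN, which encodes the scaffold paxillin, had the lowest, with vehicle values of 10.45, 10.32 and 10.37 and ox-LDL values of 10.29, 10.22 and 10.22 (adjusted p = 0.268). Its groups did not overlap, with ox-LDL below. ZYX, the tension-sensitive zyxin, had 0.09 without overlap, and the paxillin relative TGFB1I1, also called Hic-5, had -0.03. The integrin activator FERMT2 (0.07), the LIM proteins FHL3 (0.17), PDLIM5 (0.06) and PDLIM7 (-0.09), and the protease CAPN2 (0.02), which cuts talin at adhesions that disassemble, had overlapping groups. For CAPN2 the 95% confidence interval ran from -0.14 to 0.17.

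None of the 4 measured genes of actin turnover passed in limma, and 1 had an unadjusted p under 0.05. CFL1, which encodes the filament-severing cofilin, had the largest difference, 0.20 (SE 0.07, adjusted p = 0.143), without overlap. The monomer-binding PFN1 (profilin) and TMSB10 (thymosin β10) had 0.05 and 0.06, and the barbed-end cap CAPZA1 had 0.00. The 95% confidence intervals of these 3 genes all lay between -0.17 and 0.22.

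Of the transcription factors themselves none of the 3 passed in limma, and 2 had an unadjusted p under 0.05. SRF had log2 values of 7.38, 7.40 and 7.46 with vehicle and 7.72, 7.74 and 7.58 with ox-LDL, a difference of 0.26 (SE 0.08, adjusted p = 0.0943). MRTFB had 9.13, 9.14 and 8.73 with vehicle and 9.38, 9.51 and 9.47 with ox-LDL, a difference of 0.45 (SE 0.12, adjusted p = 0.0792). It was the largest difference among members that did not pass, and it was 0.32 without vehicle replicate 3, where MRTFB passed (adjusted p = 0.0309). MRTFA had a difference of -0.02 (SE 0.09) with overlapping groups. The activity of these factors depends on where the proteins are in the cell, which was not measured.

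**Figure D5:**
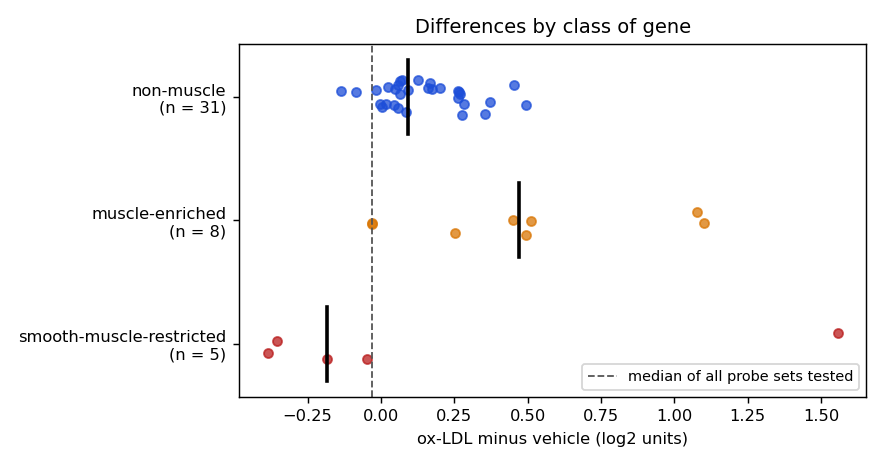
Log2 difference of ox-LDL minus vehicle (horizontal axis) for each of the 44 genes (points, spread vertically at random) by class, with a black bar for the class median and a dashed line for the median of all probe sets at -0.03. The class medians are -0.18, 0.47 and 0.09, and TAGLN at 1.56 stands far from the other 4 smooth-muscle-restricted genes, which lie from -0.39 to -0.05.

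TAGLN was the 1 smooth-muscle-restricted gene that rose. Without vehicle replicate 3 the other 4 had differences of 0.10 for ACTA2, -0.21 for ACTG2, -0.23 for CNN1 and -0.11 for MYH11. That array was the highest vehicle array for all 5 genes of the class, by a median of 0.37 over the mean of the other 2, against -0.004 for the 31 non-muscle genes. The part of this array in the class median was not tested beyond leaving it out, which moved the median from -0.18 to -0.11.

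Other genes of smooth muscle identity were read from a list of 15. PGM5, a protein of muscle adhesions, and RBPMS2, an RNA-binding protein of smooth muscle, rose by 0.38 and 0.45 on the log2 scale (adjusted p = 0.0202 and 0.0203), and 13 did not pass. The defining genes MYOCD, LMOD1 and DES had mean log2 values of 5.45, 5.56 and 6.22 with vehicle and 5.31, 5.36 and 6.01 with ox-LDL, against the negative control percentile of 5.21, and 5 of the 15 did not exceed that level in either group. Others on the list read far higher, with vehicle means of 10.15 for SMTN, 7.56 for SYNM and 7.48 for RBPMS2. The list also holds ACTN2, better known as an α-actinin of striated muscle, at 8.11. Of the 15 genes 4 had a difference above 0 and 11 below, with a median of -0.13. The mean over the list was 6.02 to 6.20 on vehicle arrays and 6.02 to 6.05 on ox-LDL arrays. Of 18 striated muscle genes, MYL7, an atrial light chain, fell by 0.34 (adjusted p = 0.044) and 17 did not pass. The median difference of these 18 genes was -0.17. PGM5, RBPMS2 and MYL7 each lost the call without any 1 array other than vehicle replicate 3, and MYL7 also when values were put through cyclic loess or quantile normalized again.

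Markers of other cells were read from 4 further lists. No gene passed among 11 fibroblast, 10 endothelial, 9 immune and 14 urothelial markers in limma. At an unadjusted p under 0.05 there were 2, 1, 2 and 1, beside 26.1% of all probe sets. Without vehicle replicate 3, the immune marker NKG7 was lower and the keratin gene KRT7 higher. The fibroblast mean was 5.34 to 5.61 on vehicle arrays and 5.28 to 5.37 on ox-LDL arrays, and the endothelial mean 6.34 to 6.70 and 6.27 to 6.33, with vehicle replicate 3 at the upper end of both. The immune mean was 5.95 to 6.18 and 5.85 to 5.91, and the urothelial mean 7.51 to 7.68 and 7.54 to 7.65. The immune and endothelial means did not overlap between groups, and nor did the striated muscle mean, 6.05 to 6.18 and 5.96 to 6.03. Among all probe sets, 17.7% had groups apart with ox-LDL below. That share is for single probe sets, and a matching share for means over a list was not computed. Differences were below 0 for 9 of 9 immune, 9 of 11 fibroblast, 8 of 10 endothelial and 6 of 14 urothelial markers, with medians of -0.12, -0.11, -0.15 and 0.03. Without vehicle replicate 3 these medians were -0.13, -0.05, -0.03 and 0.04. Of the immune markers 3 of 9, among them the leucocyte gene PTPRC, did not exceed the negative control percentile in either group, while the macrophage gene CD68 had a vehicle mean of 8.07 and CD14 of 7.54. The counts at or below that level were 4 of 11 fibroblast, 2 of 10 endothelial and 3 of 14 urothelial markers. The fibroblast genes PDGFRB, COL1A1 and DCN had vehicle means of 5.83, 7.71 and 5.60, and COL1A2 had 8.71. The endothelial genes PECAM1 and CDH5 had vehicle means of 5.70 and 6.77, and EGFL7 had 9.12. The part of these lists in the members' differences was not tested. The epithelial keratin genes KRT7 and KRT18 had means of 11.97 and 11.89 with vehicle and 12.25 and 11.91 with ox-LDL. KRT19 had 7.67 with vehicle and 7.78 with ox-LDL, and EPCAM had 5.48 and 5.61. Others on the urothelial list had vehicle means of 12.10 for KRT8, 6.92 for KRT5 and 3.96 for CDH1. All samples were of the T24 line, and in bulk samples fewer cells with a marker and less RNA per cell cannot be told apart.

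Genes of the same pathway that are no members went both ways. Over 4 lists with 74 measured genes, 6 were higher and 9 lower, beside 3.48% and 3.29% of all probe sets. Without vehicle replicate 3 the counts were 12 and 11. Without any 1 ox-LDL array 1 or 2 were higher and 4 lower, against 4 or 5 and 5 without vehicle replicate 1 or 2. The share of all probe sets that was lower was 1.86%, 1.8% and 5.69% when vehicle arrays 1 to 3 were left out in turn, and 0.988%, 0.988% and 1.07% for the ox-LDL arrays. Genes of 3 of these lists are described here.

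Of 18 genes of actin nucleation and branching, VASP, which elongates filaments at adhesions, fell by 0.38 (SE 0.08, adjusted p = 0.0349) and ARPC1B, a subunit of the branching Arp2/3 complex, by 0.36 (SE 0.08, adjusted p = 0.0434). Neither passed without any 1 array other than vehicle replicate 3, and ARPC1B did not pass with equal array medians. Of 16 other focal adhesion genes, TNS3, a tensin that ties integrins to actin, fell by 0.49 (SE 0.08, adjusted p = 0.0202) and VASP, which stands in this list too, was the other that passed. TNS3 lost its call when vehicle replicate 2 or 1 of the ox-LDL arrays was left out.

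Of 21 other targets of SRF and its coactivators, 6 rose and 4 fell. The 4 with the smallest p were EGR1, CCN1, TES and PLAUR. EGR1, an immediate early factor driven by SRF with ternary complex factors, fell from 8.66, 8.43 and 8.38 to 6.84, 6.84 and 6.94, a 3.07-fold fall (adjusted p = 0.000671). CCN1, a secreted matrix protein, rose from 10.21, 10.29 and 10.27 to 11.05, 10.96 and 10.97 (log2 difference 0.73, SE 0.07, adjusted p = 0.00303). TES, a LIM protein of adhesions that binds zyxin, fell by 0.62 (adjusted p = 0.00494) and PLAUR, the urokinase receptor, by 0.73 (adjusted p = 0.00549). For these 4 genes no alternative ended the call. Of the other genes of this list that passed, CRIM1, CCN2, ANKRD1, PDLIM1 and TUFT1 rose by 0.54, 0.75, 1.50, 0.39 and 0.60 on the log2 scale. GEM fell by 0.43. When 1 ox-LDL array was left out, 1 or 2 genes of the whole list were higher.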

How the data were processed

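The deposited values are log2 expression levels; the authors summarised probes into them with RMA, per the submitters' processing notes. The RMA version, genome build and any scan date were not given in the sources used here. Per the labels' protocols, biotinylated cDNA was made from 500 ng of total RNA. RMA as generally defined equalises arrays, so a change of total RNA cannot be seen, and it compresses changes of dim genes. Of 24350 probe sets, 2902 controls were left out. A platform annotation table named 1 gene for 17709 of the remaining 21448, none for 3739, and every measured member had 1 probe set.

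All arrays, grouped by their titles, entered 1 limma model (lmFit and eBayes, limma 3.58.1, R 4.3.3; figures with matplotlib 3.10.9), with two-sided p-values adjusted by Benjamini-Hochberg over 21448 probe sets. Errors are SD over arrays or limma's standard error, and intervals are 95% confidence intervals. Members and lists were chosen with earlier results of these data known. Every array's value is given for the smooth-muscle-restricted genes, their counterparts and each member that passed; of each other list, passing genes are named, or the 4 with the smallest p where over 5 passed. Markers of other cells and the remaining SRF targets that passed were named beyond this rule, after their values were seen. Promoter windows and motifs were read from RefSeq tables. The model was checked on simulated data. No replicate pairing was used, and protein sequences were not used here. Alternatives covered scaling, a filter on dim probe sets, the variance model, a replicate block, the study's selection and each array left out. Genes of 1 pathway list are counted in the totals and are otherwise not reported here.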

Additional observations from a re-analysis of the deposited data

How the results depend on the processing

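The count of 9 members higher was 9 or 10 after cyclic loess, renewed quantile normalization, a shift to equal medians, with an unmoderated t statistic or with probe sets averaged per gene. The number higher was 16 among probe sets above the median level, 18 with an intensity trend and robust fit, 17 with array weights, and 3 with the study's selection, beside 14.6%, 7.5%, 9.98% and 1% of all probe sets higher. The other pathway genes gave 11, 11, 14 and 3 higher under these settings, 3 higher with an unmoderated t statistic, and 4 lower with the study's selection; the filter tests fewer probe sets, and the cause of the other shifts was not tested. Leaving out single arrays gave 3 to 14 members higher, and 1 to 12 pathway genes higher and 4 to 11 lower. No pairing by replicate number was seen: deviations of same-numbered arrays correlated at -0.006, 0.03 and 0.02. Differently numbered arrays gave -0.042 to 0.035, and so few arrays cannot exclude a pairing. With the replicate block 3 members and 3 pathway genes were higher and 4 pathway genes lower.

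The median over members was 0.14 with equal array medians, 0.095 after quantile normalization, 0.078 after cyclic loess, 0.16 above the median level, 0.15 with array weights, and 0.11 to 0.15 with single arrays left out. The muscle-enriched median was 0.50 with equal medians and 0.42 after loess (0.43 to 0.49 with single arrays left out), and the non-muscle median 0.12 and 0.045 (0.094 to 0.12). The smooth-muscle-restricted median was 0.59 above the median level, where TAGLN and ACTG2 alone were tested, and 0.25 with the muscle-enriched genes joined. It was -0.071 after cyclic loess, -0.10 after renewed quantile normalization and between -0.27 and -0.06 with single arrays left out.

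Only members that did not pass changed sign. A shift to equal medians adds the same amount to every gene, so its changes of sign follow from the scaling: MYLK had 0.00017, TGFB1I1 0.0013, MYL12B 0.028 and MRTFA 0.013. After quantile normalization CAPZA1 had -0.0071 and MYLK 0.040. After cyclic loess CAPZA1 had -0.049, CAPN2 -0.018, MYLK 0.081, ACTA2 0.0088, LIMA1 -0.010 and ACTN1 -0.0081. With array weights CAPZA1 had -0.014, MYLK 0.16, ACTA2 0.074, FERMT2 -0.0025, TGFB1I1 0.017, MYL12A -0.024 and MRTFA 0.036. With single arrays left out, CAPZA1 ran from -0.033 to 0.040, MYLK from -0.16 to 0.15, ACTA2 from -0.12 to 0.10, TGFB1I1 from -0.066 to 0.0032, MYL12A from -0.053 to 0.15, MYL12B from -0.023 to 0.029, MRTFA from -0.071 to 0.060 and FERMT2 from -0.05 to 0.16.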
